A study of Mus musculus with 12 samples.

Results

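The genes described here encode 9 neuronal RNA-binding proteins that hold messenger RNA silent or control its transport. They were chosen by name from 4 families, the fragile X family (Fmr1, Fxr1, Fxr2), the Staufen family (Stau1, Stau2), the Pumilio family (Pum2) and the cytoplasmic polyadenylation element binding family (Cpeb2, Cpeb3, Cpeb4). All 9 were found by symbol among the 21492 genes of the deposited table, and all passed the filter on low values in every comparison. The choice used no measured value, but it was made with earlier results of these data known.

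The striatum was taken from C57BL/6J males at postnatal day 70. Shank3 transgenic mice (TG) and wild-type mice (WT) were each sampled as synaptosomal polysome RNA and as synaptosomal input RNA, giving the groups TG polysome, TG input, WT polysome and WT input with 3 libraries each. Synaptosomes are nerve endings that reseal during homogenization, often with postsynaptic membrane attached, and polysomes are messenger RNAs carrying several ribosomes. The sources used here do not give the transgene's promoter, the founder line, or whether each of the 3 samples in a group is a different animal. The p-values therefore rest on how far these samples differ from each other, and part of that may be technical.

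Fragile X proteins bind messenger RNA and ribosomes in dendrites and restrain translation near synapses. Staufen proteins bind double-stranded stretches of RNA, and Stau2 is a core part of RNA granules that travel along dendrites. Pumilio proteins bind a short motif in the 3′ untranslated region (3′ UTR) and recruit the enzymes that shorten the poly(A) tail. CPEB proteins bind a U-rich element in the 3′ UTR and control the length of the tail and translation. The transcripts of these genes were measured here, not the proteins and not the RNAs that the proteins bind.

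On GRCm38, Fmr1 lies at chrX:68678541-68717963 on the plus strand, Fxr1 at chr3:34019943-34070322 on the plus strand and Fxr2 at chr11:69632990-69653297 on the plus strand. Stau1 lies at chr2:166947549-166996299 and Stau2 at chr1:16228674-16520112, both on the minus strand. Pum2 lies at chr12:8674134-8752581 on the plus strand. Cpeb2 lies at chr5:43233170-43289724 on the plus strand, Cpeb3 at chr19:37021291-37208601 on the minus strand and Cpeb4 at chr11:31872211-31935634 on the plus strand. Fmr1 shared 3.39% and Fxr1 1.58% of their exonic 31-base sequences with other genes, and the other members shared at most 0.292%.

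Because Pumilio and CPEB proteins act through short 3′ UTR motifs, the longest annotated 3′ UTR of each member (GENCODE M21) was searched on the transcript strand. The search was for the Pumilio motif TGTANATA and for the cytoplasmic polyadenylation element TTTTAT. Whether the proteins of Cpeb2, Cpeb3 or Cpeb4 bind TTTTAT was not tested. The Pumilio motif occurred 2 times each in Fmr1 and Pum2, 1 time each in Cpeb2 and Cpeb3, and not in the other members. The 6 matches are shown because they lie in transcripts of the translational repressors themselves, with the motif in capitals, 30 bases each, 5′ to 3′ on the gene's strand (GRCm38).
Fmr1, chrX:68717288-68717317, plus strand: gtttaaaatacTGTAGATAattaaccaagg
Fmr1, chrX:68717349-68717378, plus strand: gcaatattctcTGTACATAttagcgacaac
Pum2, chr12:8750154-8750183, plus strand: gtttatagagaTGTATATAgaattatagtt
Pum2, chr12:8750407-8750436, plus strand: atgtacagaatTGTATATActtataattgt
Cpeb2, chr5:43286403-43286432, plus strand: tgttttcagtgTGTACATAaactaaaaatt
Cpeb3, chr19:37022117-37022146, minus strand: cccttttgtttTGTAAATAaatgtgccccc

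The element TTTTAT occurred 20 times in the 3′ UTR of Cpeb2, 11 times in Cpeb4, 6 times in Cpeb3, 5 times in Pum2, 4 times in Fmr1 and 2 times in Stau2. It was not found in Fxr1, Fxr2 or Stau1. 1 match in Stau2, the member with the largest difference below, is shown with the element in capitals. It lies in the annotated transcript with the longest 3′ UTR, inside the gene and not near the gene's 3′ end at chr1:16228674. Which Stau2 transcripts were expressed, and whether others hold the element, was not tested.
Stau2, chr1:16345160-16345189, minus strand: ctgttgatttgaTTTTATagcagttttgaa

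These 3′ UTRs ran from 598 bases in Fxr2 to 4102 bases in Cpeb4, against a median of 1099 bases over 16709 genes, and a longer UTR holds more matches of any short motif. In windows of the same length, the last 1000 bases of a 3′ UTR, TGTANATA was present in 2 of 8 members and in 22.0% of 8883 genes. TTTTAT was present in the windows of 6 of 8 members and of 58.1% of those genes. Fxr2 was too short for such a window. A match describes these letters and not a bound site.

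The deposited values are the authors' normalized estimated counts, called normalized counts below. Their sums ran from 62.2 to 74.3 M in polysome libraries and from 95.5 to 112.6 M in input libraries, while the median gene lay between 268 and 292 in all 12. The depth in reads is unknown, because reads per gene could not be recovered. Shank3 was higher in the TG library of each number, by 1.74, 1.77 and 1.07 on the log2 scale in polysome libraries and by 1.36, 2.07 and 1.27 in input libraries for numbers 1, 2 and 3, although the TG and WT groups overlapped. The 10 marker genes of medium spiny neurons, the principal striatal cells, were all present, with a summed level of at least 159189 in every library. No marker in the lists of neurons, medium spiny neurons, cortical excitatory neurons, astrocytes, oligodendrocytes, microglia, endothelium and blood was at 0 in all libraries, so RNA of glia, endothelium and blood was also present.

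All 9 genes were well expressed, and their levels lay in an upper and a lower range. Per kilobase of exon, Pum2 had 1402 ± 13.6 normalized counts in TG polysome, 1226 ± 227 in TG input, then 1449 ± 79.5 in WT polysome and 1182 ± 73.3 in WT input (mean ± SD, n = 3 each). Cpeb4 had 920.0 ± 58.3 per kilobase in TG polysome, 1032 ± 37.0 in TG input, then 882 ± 112 in WT polysome, and 979.8 ± 83.4 in WT input. Fxr2 had 761 ± 90.9 in TG polysome, 1023 ± 157 in TG input, then 770.5 ± 159 in WT polysome and 1039 ± 60.0 in WT input per kilobase. Among these 3 genes, Pum2 and Cpeb4 overlapped in TG input, Cpeb4 and Fxr2 overlapped in every group but TG polysome, and Pum2 stood clear of the next gene in the other 3 groups.

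The lower range held Cpeb3, Cpeb2, Fxr1, Fmr1 and Stau1, with group means between 217 and 415 per kilobase. Stau2, the brain-enriched Staufen gene, changed its neighbours with the fraction. Its level per kilobase was 791 ± 126 in TG input and 833 ± 169 in WT input, clear of the 5 genes of the lower range. In TG polysome it was 347 ± 54.4 and in WT polysome 366 ± 45.9 per kilobase, within the spread of Cpeb3, which had 343 ± 57.7 in TG polysome and 359 ± 28.2 in WT polysome. The order depends on which length is used: with the longest annotated transcript in place of all exons, Stau2 ranked first in WT input, and over all 12 libraries 1 of the 9 ranks, that of Pum2, stayed as it was.

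**Figure D1:**
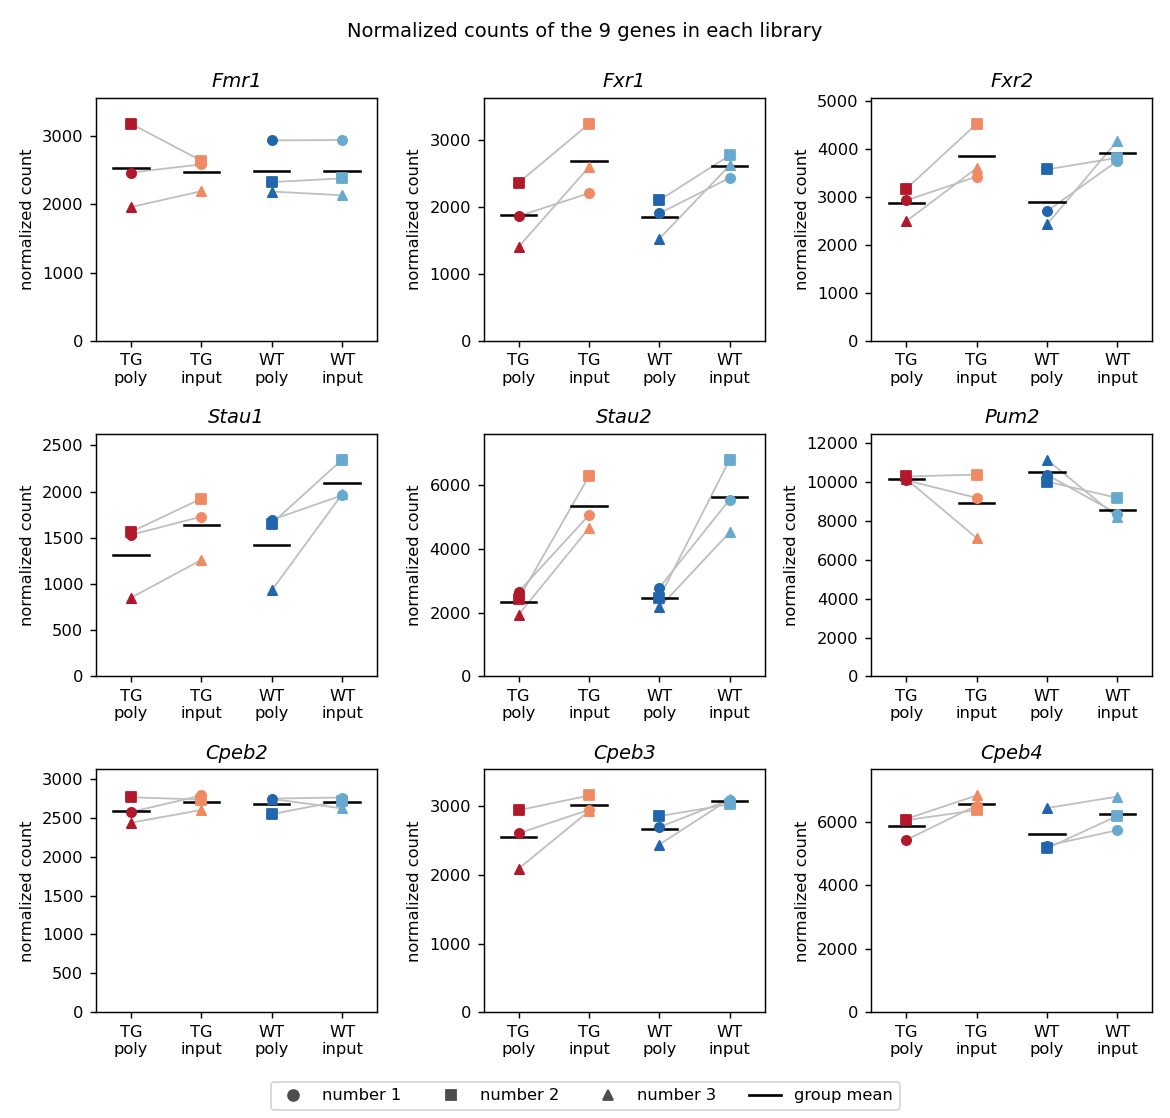
Normalized counts (vertical axis, from 0) of the 9 genes in each of the 12 libraries, by group from left to right: TG polysome, TG input, WT polysome and WT input. Symbols mark the library number, grey lines join the polysome and input library of 1 number and genotype, and black bars are group means. Stau2 has all 6 polysome values below all 6 input values, while the values of Fmr1 and Cpeb2 overlap between fractions.

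The first comparison asked how each transcript was represented in polysomes relative to the synaptosomal RNA from which the polysomes came. Stau2 was the member with a called difference, lower in polysomes in both genotypes. Fxr1, Fxr2, Stau1 and the 2 CPEB genes Cpeb3 and Cpeb4 had lower polysome values in all 6 same-numbered pairs without passing the test when no replicate block was used, Fmr1 and Cpeb2 overlapped between fractions, and Pum2 had higher polysome values in 5 of 6 pairs. The share of all tested genes with lower polysome values in all 6 pairs was not counted, so this does not set the members apart. In bulk samples, the nerve endings or cells from which a lower polysome value came cannot be told.

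Stau2 had normalized counts of 2657, 2437 and 1939.6 in TG polysome libraries 1, 2 and 3, against 5062, 6286 and 4655 in TG input libraries. In WT it had 2784, 2469 and 2165 in polysome libraries, against 5546, 6799 and 4518 in input libraries. Every polysome library lay below every input library, in both genotypes. The log2 difference of polysome minus input was -1.19 ± 0.19 (SE) in TG with an adjusted p of 0.00324 (limma). In WT it was -1.17 ± 0.19 with an adjusted p of 0.00409 (limma). A lower difference was found for 3.18% of all tested genes in TG and for 2.87% in WT. Over the alternatives tried the Stau2 difference ran from -1.31 to -1.03 in TG and from -1.32 to -1.01 in WT, and it passed the test in all of them. None of these scaled the libraries to equal sums.

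Stau2 was 1 of 9 members called, or 11.1%, in each genotype. The share of all 16962 tested genes called in either direction was 18.1% in TG and 14.0% in WT. The share called higher was 8.19% in TG and 5.36% in WT. The share called lower was 9.86% in TG and 8.59% in WT, so the members' share of 11.1% was near the background. The median log2 difference of the 9 genes was -0.26 in TG and -0.21 in WT, against 0.030 in TG and 0.026 in WT over all tested genes.

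Stau1, the widely expressed Staufen gene, had normalized counts of 1533, 1564 and 852 in TG polysome libraries, against 1729, 1925 and 1261 in TG input libraries. The WT values were 1694, 1655 and 932 in polysome libraries, against 1960.5, 2346 and 1971 in input libraries. The groups overlapped in TG and not in WT, and library 3 was the lowest polysome library in both genotypes. The log2 difference was -0.35 ± 0.28 in TG with an adjusted p of 0.423, and -0.60 ± 0.28 in WT with an adjusted p of 0.170 (limma). The ratio of Stau2 to Stau1 was 1.73, 1.56 and 2.28 in TG polysome, against 2.93, 3.27 and 3.69 in TG input. In WT the ratio was 1.64, 1.49 and 2.32 in polysome, against 2.83, 2.90 and 2.29 in input, where number 3 had nearly the same ratio in both fractions. The difference between the 2 Staufen genes was not tested.

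Among the fragile X genes, Fmr1, which encodes FMRP, showed the smallest differences. It had 2469.8, 3185 and 1963 normalized counts in TG polysome libraries, against 2589, 2643 and 2195 in TG input libraries. Among WT libraries it had 2941, 2329 and 2190.1 in polysome libraries, against 2947, 2383 and 2136 in input libraries. The WT values were close between fractions within each number, and the spread lay between the numbers. Its log2 difference was 0.013 ± 0.20 in TG with an adjusted p of 0.974, and 0.00017 ± 0.20 in WT with an adjusted p of 0.999 (limma).

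Fxr1, an autosomal relative of Fmr1, had 1865, 2366 and 1407 normalized counts in TG polysome libraries, against 2208, 3247 and 2600.1 in TG input libraries. In WT it had 1906, 2102 and 1526 in polysome libraries, against 2437, 2775 and 2625 in input libraries. The groups overlapped in TG and not in WT. The log2 difference was -0.53 ± 0.21 in TG with an adjusted p of 0.0981, and -0.51 ± 0.21 in WT with an adjusted p of 0.118 (limma).

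Fxr2, the other relative, had 2928, 3170.1 and 2495 normalized counts in TG polysome libraries, against 3424, 4527 and 3602 in TG input libraries. The WT values were 2703, 3575 and 2427 in polysome libraries, against 3751, 3817 and 4171 in input libraries. The fractions did not overlap in either genotype, and WT number 2 came closest. Its log2 difference was -0.42 ± 0.18 in TG with an adjusted p of 0.115, and -0.45 ± 0.18 in WT with an adjusted p of 0.106 (limma). The ratio of Fxr1 to Fmr1 was 0.755, 0.743 and 0.717 in TG polysome, against 0.853, 1.23 and 1.18 in TG input. In WT that ratio was 0.648, 0.903 and 0.697 in polysome, against 0.827, 1.16 and 1.23 in input, so it was lower in the polysome library of every number in TG and in WT, although the WT groups overlapped.

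Same-numbered libraries deviated together, and a fit with a replicate block changed calls for 3 of these genes. In that fit Fxr1 passed in TG (adjusted p = 0.0259, limma) and in WT (adjusted p = 0.0323). Fxr2 passed in WT (adjusted p = 0.0458) and not in TG (adjusted p = 0.0520). Stau1 passed in WT (adjusted p = 0.0279) and not in TG (adjusted p = 0.144), while Stau2 passed in both, at 0.00121 in TG and 0.00138 in WT. The block fit thus called 2 of 9 members in TG and 4 of 9 in WT, all lower. Of all tested genes it called 33.2% in TG and 29.8% in WT, with 16.6% lower and 16.7% higher in TG and 15.9% lower and 13.9% higher in WT. Without the libraries of number 1, 2 or 3, Fxr1 in WT had adjusted p-values of 0.0717, 0.135 and 0.0547 in the block fit. Fxr1 in TG had 0.0462, 0.120 and 0.0652, Fxr2 in WT had 0.166, 0.0858 and 0.172, and Stau1 in WT had 0.0382, 0.130 and 0.0817. Of these 4 calls, Fxr1 in TG and Stau1 in WT passed without number 1, and none passed without number 2 or without number 3.

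The libraries of number 3 carried the largest differences of Fxr1 and Stau1. For Fxr1 the log2 difference within numbers 1, 2 and 3 was -0.24, -0.46 and -0.89 in TG, and -0.35, -0.40 and -0.78 in WT. For Stau1 it was -0.17, -0.30 and -0.57 in TG, and -0.21, -0.50 and -1.08 in WT. Number 3 also stood apart in its markers, in both fractions. Hemoglobin and other blood markers summed to 11078 in TG polysome 3 and 10337 in WT polysome 3, against 4249.96 to 5728 in the other polysome libraries. In input libraries they summed to 8199 in TG input 3 and 7433 in WT input 3, against 3906 to 4822 in the others. Microglial markers summed to 34560 in TG polysome 3 and 30316 in WT polysome 3, against 23651 to 25632 in the other polysome libraries, and to 34023 in TG input 3 and 33410 in WT input 3, against 21844 to 23836 in the other input libraries. Number 2 stood apart in medium spiny markers, with 439489 in TG polysome 2 and 413734 in WT polysome 2, against 179764 to 251877 in the other polysome libraries, and with 354160 in TG input 2 and 325943 in WT input 2, against 159189 to 196001 in the other input libraries. Cortical excitatory markers were lowest in number 2, at 43024 in TG polysome 2 and 51933 in WT polysome 2. The other polysome libraries had 79741 to 131036, with number 3 highest, at 131036 in TG and 108621 in WT. In input libraries these markers summed to 29216 in TG input 2 and 34065 in WT input 2, against 60281 to 81372 in the others. The part of all these markers in the results for Fxr1 and Stau1 was not tested.

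Pum2, the most abundant member, had 10094, 10287 and 10156 normalized counts in TG polysome libraries, against 9187, 10385 and 7123 in TG input libraries. Among WT libraries it had 10374, 10026 and 11154 in polysome libraries, against 8371, 9186 and 8186 in input libraries. The polysome values were higher without overlap in WT and overlapped in TG. The log2 difference was 0.21 ± 0.15 in TG with an adjusted p of 0.371, and 0.29 ± 0.15 in WT with an adjusted p of 0.220 (limma).

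None of the 3 CPEB genes passed the test in either genotype. Cpeb2 had 2575, 2764 and 2437 normalized counts in TG polysome libraries, against 2787, 2734 and 2601 in TG input libraries. The WT values were 2747, 2547 and 2742 in polysome libraries, against 2761, 2720.0 and 2621 in input libraries. The fractions overlapped in both genotypes. Its log2 difference was -0.064 ± 0.12 in TG with an adjusted p of 0.763, and -0.012 ± 0.12 in WT with an adjusted p of 0.963 (limma).

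Cpeb3, studied in memory and in prion-like assembly, had 2604, 2939.5 and 2090.3 normalized counts in TG polysome libraries, against 2946, 3154 and 2928 in TG input libraries. Among WT libraries it had 2694, 2854 and 2439.8 in polysome libraries, against 3093, 3026 and 3103 in input libraries. The groups overlapped in TG and not in WT. The log2 difference was -0.26 ± 0.15 in TG with an adjusted p of 0.254, and -0.21 ± 0.15 in WT with an adjusted p of 0.368 (limma).

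Cpeb4 had 5432, 6053 and 6094 normalized counts in TG polysome libraries, against 6515, 6371 and 6831 in TG input libraries. In WT it had 5251, 5164 and 6436 in polysome libraries, against 5737, 6187 and 6796 in input libraries. Here the groups overlapped in WT and not in TG. Its log2 difference was -0.17 ± 0.14 in TG with an adjusted p of 0.444, and -0.16 ± 0.14 in WT with an adjusted p of 0.496 (limma).

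Counted over the 9 genes, the fractions did not overlap for 3 members in TG, all lower in polysomes (Fxr2, Stau2, Cpeb4), where 18.0% of all tested genes did so. In WT they did not overlap for 5 members lower in polysomes (Fxr1, Fxr2, Stau1, Stau2, Cpeb3), with 18.5% over all tested genes, and for 1 member higher (Pum2), with 17.7% over all tested genes. Several of the differences that did not pass moved by over 1.5 times or changed sign when a trend on exonic length was removed. In that fit the difference was 0.29 in TG and 0.27 in WT for Fmr1, 0.40 in TG and 0.48 in WT for Pum2, 0.16 in TG and 0.20 in WT for Cpeb2, -0.058 in TG and -0.015 in WT for Cpeb3, and -0.036 in TG and -0.021 in WT for Cpeb4. None of these passed. The number of unadjusted p-values under 0.05 was 3 of 9 in each genotype, against 32.8% of all tested genes in TG and 30.2% in WT.

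**Figure D2:**
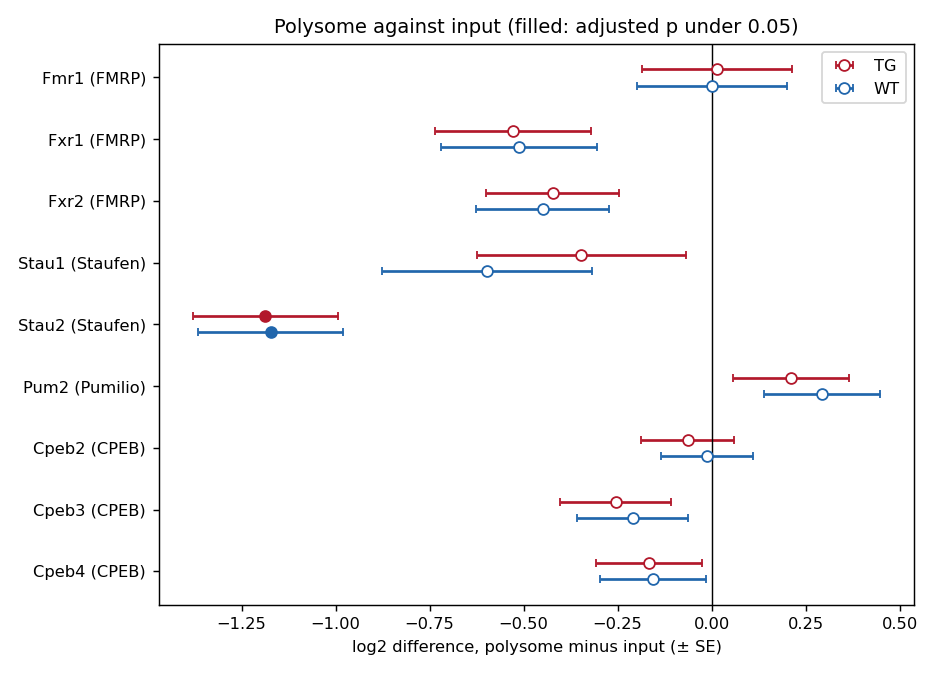
The log2 difference of polysome minus input (horizontal axis, ± SE) of the 9 genes, TG above WT in each row, with filled points for an adjusted p under 0.05. Stau2 is filled in both genotypes, at -1.19 in TG and -1.17 in WT, and the points of the other genes lie between -0.60 and 0.29.

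Markers of neurons also lay mostly lower in polysome libraries. The summed level of 6 neuronal markers ran from 174980 to 204233 in TG polysome libraries, against 217694 to 315914 in TG input libraries. In WT it ran from 173752 to 245308 in polysome libraries, against 223495 to 296323 in input libraries. The median log2 difference of these markers was -0.36 in TG and -0.34 in WT, with 5 of 6 negative and 1 called lower in each. Of all tested genes 9.86% were called lower in TG and 8.59% in WT. Astrocyte markers summed to 226243 to 354081 in TG polysome, against 337393 to 397506 in TG input, and to 209987 to 332684 in WT polysome, against 356294 to 371486 in WT input, without overlap in WT. Their medians were -0.29 in TG, with 5 of 6 negative, and -0.24 in WT, with 4 of 6 negative, and 2 were called lower in each. The sum mainly followed Slc1a2, with a mean log2 level of 18.2 in input libraries, against 11.5 to 15.7 for the other astrocyte markers. Slc1a2 was lower in all 6 pairs but not called in WT (-0.32, adjusted p = 0.415, limma). Gfap went the other way and was lower in polysomes in 0 of 6 pairs.

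Medium spiny markers had medians of 0.36 in TG and 0.26 in WT, and none of the 10 was called without a replicate block. With the block 5 were called higher and 2 lower in TG, and 3 higher and 2 lower in WT. Of all tested genes the block fit called 16.7% higher and 16.6% lower in TG, and 13.9% higher and 15.9% lower in WT. Endothelial markers went both ways, with a median of -0.25 and 4 of 6 negative in TG, and a median of -0.048 and 3 of 6 negative in WT. Slco1c1 was called lower in both genotypes and Cldn5 was called higher in TG, with a log2 difference of 1.05 ± 0.29 (adjusted p = 0.0278, limma). The 6 endothelial markers summed to 1122 to 1872 in TG polysome, against 1931 to 2387 in TG input. In WT polysome they summed to 1212 to 1661, against 2213 to 2516 in WT input. Slco1c1 had a mean log2 level of 10.8 in input libraries, against 5.53 to 7.16 for the other endothelial markers. The sum therefore mainly followed Slco1c1. Medians of the other lists were -0.35 in TG and -0.30 in WT for cortical excitatory neurons, -0.23 in TG and -0.21 in WT for oligodendrocytes, 0.22 in TG and 0.091 in WT for microglia, and 0.52 in TG and 0.28 in WT for blood. Whether any of these markers has a part in the result for Stau2 was not tested.

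The partners of these proteins were described from 5 lists of other genes, 77 of which were tested. In TG 2 rose and 22 fell in polysomes, 31.2% of the 77. In WT 1 rose and 18 fell, 24.7% of the 77. The background was 18.1% in TG and 14.0% in WT. By direction it was 8.19% higher and 9.86% lower in TG, and 5.36% higher and 8.59% lower in WT. These shares stand beside the counts without a block for each list below, and in a short list a few calls can lie near them. With a replicate block 4 of the 77 rose and 28 fell in TG, and 3 rose and 30 fell in WT. The background in that fit was 33.2% in TG and 29.8% in WT. By direction it was 16.7% higher and 16.6% lower in TG, and 13.9% higher and 15.9% lower in WT.

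Among 16 partners of FMRP, 8 fell and 1 rose in each genotype, with a median log2 difference of -0.60 in TG and -0.61 in WT. The genes that fell in both were Cyfip1 and Cyfip2, FMRP-binding proteins that also belong to the actin-regulating WAVE complex, Caprin1, G3bp1 and G3bp2 of stress granules, Dicer1, Ybx1 and Pabpc1, the poly(A)-binding protein. Ybx1 had the largest fall in WT, with -1.40 ± 0.30 in TG (adjusted p = 0.0105) and -1.30 ± 0.30 in WT (adjusted p = 0.0169, limma). Eif4e, the cap-binding protein that CYFIP1 holds, rose by 0.91 ± 0.23 in TG (adjusted p = 0.0179) and by 0.99 ± 0.23 in WT (adjusted p = 0.0163, limma). Ybx1 shares 25.9%, Pabpc1 16.1%, G3bp1 12.3% and Eif4e 8.68% of their exonic 31-base sequences with other genes, so their values are uncertain. Leaving out 1 library gave 5 to 8 falls in TG, with 5 without TG polysome 3, and 3 to 8 in WT, with 3 without WT input 3 and 5 without WT polysome 3 or WT input 2. The rise of Eif4e was not called in TG without TG polysome 1, TG polysome 2, TG input 2 or TG input 3, nor in WT without WT polysome 3 or WT input 3. Removing a trend on exonic length gave 5 falls in TG and 4 in WT.

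Of 14 genes of Staufen-mediated decay and the exon junction, 7 fell and 1 rose in TG, and 3 fell in WT. The fit with a replicate block gave 8 falls in TG and 9 in WT, where 16.6% of all tested genes fell in TG and 15.9% in WT. Smg6, the endonuclease of nonsense-mediated decay, fell by 1.18 ± 0.18 in TG (adjusted p = 0.00256) and fell by 1.18 ± 0.18 in WT (adjusted p = 0.00282, limma). Casc3 fell in both as well, and Upf2, Upf3b, Smg1 and Syncrip fell in TG. The gene that rose in TG was Magoh, of the exon junction complex. Leaving out 1 library gave 1 to 8 falls in TG, with 1 without TG polysome 3 and 2 without TG polysome 1, TG input 2 or TG input 3. In WT it gave 1 to 4 falls, with 1 without WT polysome 1, 2 or 3 and without WT input 2 or 3. The call of Magoh was lost in 10 of the 12 fits that left out 1 library.

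Of the list of Pumilio, Nanos and deadenylase genes, 12 of 14 were tested. In TG 4 fell and in WT 3 fell, with Cnot1 and Pan3 among those that fell in both and Pan2 among those that fell in TG. Cnot1, the scaffold of the CCR4-NOT deadenylase, fell by 1.26 ± 0.25 in TG (adjusted p = 0.00792) and fell by 1.35 ± 0.25 in WT (adjusted p = 0.00720, limma). The median of the list was -0.11 in TG and -0.0072 in WT, against 0.030 in TG and 0.026 in WT over all tested genes. Leaving out 1 library gave 1 fall in TG without TG input 3, 2 falls in TG without TG polysome 1, TG polysome 3 or TG input 2, and 2 to 3 falls in WT.

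Of the CPEB and polyadenylation list, 13 of 14 were tested, and 2 fell in TG and 3 in WT. Those that fell were cleavage and polyadenylation factor subunits, Cpsf1 and Cpsf2 in both genotypes and Cpsf3 in WT. Cpsf1 fell by 1.17 ± 0.32 in TG (adjusted p = 0.0252) and fell by 1.42 ± 0.32 in WT (adjusted p = 0.0146, limma). Cpeb1, the remaining CPEB gene, did not pass, with -0.22 ± 0.15 in TG and -0.35 ± 0.15 in WT. No gene of this list was called in TG without TG polysome 1, TG polysome 3, TG input 2 or TG input 3, and none in WT without WT polysome 3, WT input 2 or WT input 3. Only 1 was called in TG without TG input 1, WT polysome 2 or any 1 WT input library, and in WT without TG polysome 1, TG input 2 or WT input 1. Removing the trend on exonic length left 1 fall in each genotype.

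Among 22 tested genes of other neuronal RNA-binding proteins, Celf4 fell in both genotypes and no other gene was called. Celf4, a regulator of splicing and of messenger RNA stability in neurons, fell by 1.04 ± 0.20 in TG (adjusted p = 0.00642) and fell by 0.85 ± 0.20 in WT (adjusted p = 0.0164, limma). Celf4 was not called in WT without WT polysome 2, WT polysome 3 or WT input 3. With a replicate block 5 of the 22 fell and 2 rose in TG, against 16.6% lower and 16.7% higher over all tested genes. In WT 3 of the 22 fell and 1 rose with the block, against 15.9% lower and 13.9% higher over all tested genes. Without TG input 1, 2 fell in TG.

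**Figure D3:**
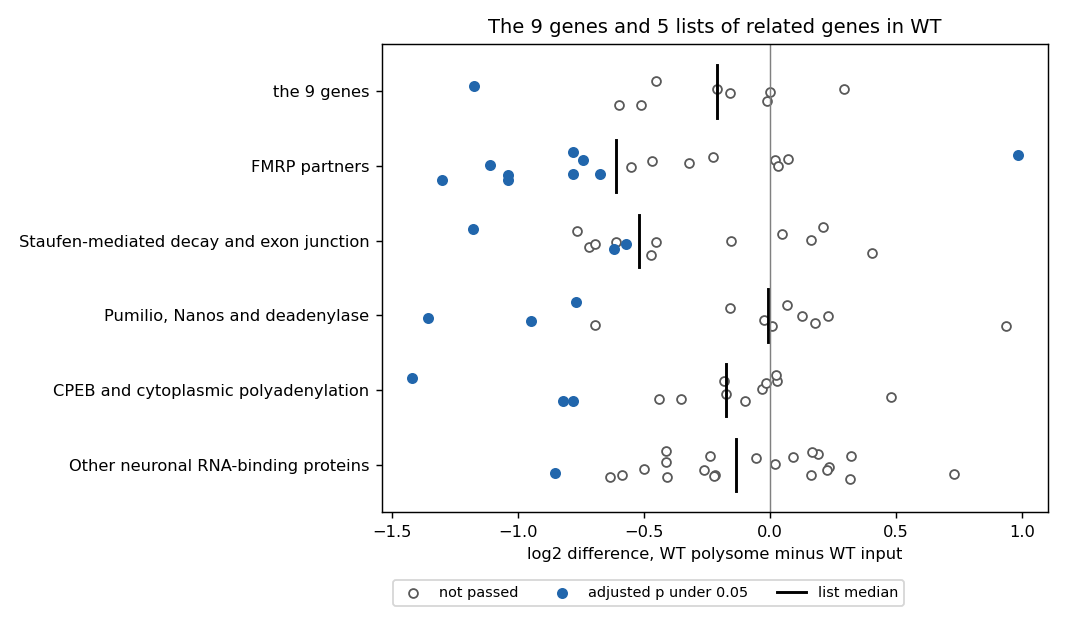
The log2 difference of WT polysome minus WT input (horizontal axis) for each of the 9 genes and for the tested genes of 5 lists of related genes, with filled points for an adjusted p under 0.05 and a black bar at each list's median. The median of FMRP partners is -0.61, and that of the 9 genes is -0.21.

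The second comparison asked whether the transgene altered these transcripts, and no member passed the test in either fraction. Of 16312 genes tested in polysome libraries and 16341 in input libraries, none was called (0% in each, limma), with 53 (0.325%) and 80 (0.490%) at an unadjusted p under 0.05. With a replicate block, 1 gene (0.00613%) was called in polysome libraries, Shank3 itself, and none in input libraries. Without the block Shank3 was not called, at 1.53 ± 0.52 (SE) in polysome libraries and 1.57 ± 0.49 in input libraries. That fit counts deviations shared by same-numbered libraries as spread. Its shares of unadjusted p under 0.05 lay below 0.05, the share given where no gene differs. The lack of calls therefore does not show that these genes were unchanged. No member had an unadjusted p under 0.05 in the fit without the block. Between genotypes, fewer nerve endings of a type and less RNA in each of them cannot be told apart in bulk samples. In polysome libraries the log2 differences of TG minus WT ran from -0.12 to 0.066, with SEs of 0.14 to 0.31. In input libraries they ran from -0.37 to 0.078, with SEs of 0.13 to 0.20.

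The largest of these differences was that of Stau1 in input libraries. Stau1 had 1729, 1925 and 1261 normalized counts in TG input, against 1960.5, 2346 and 1971 in WT input. Every TG library lay below every WT library. Of all tested genes 1.39% showed this with TG lower and 1.23% with TG higher. The log2 difference was -0.37 ± 0.19 with an unadjusted p of 0.0909 and an adjusted p of 1.00 (limma). With the replicate block the unadjusted p was 0.0144 and the adjusted p again 1.00. In polysome libraries Stau1 overlapped between TG and WT, with a difference of -0.12 ± 0.31. No member separated TG from WT there, where 1.37% of all tested genes separated with TG higher and 0.999% with TG lower.

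For the gene that the polysome comparison singled out, Stau2, the genotype difference was -0.082 ± 0.18 in polysome libraries and -0.067 ± 0.20 in input libraries. Fmr1 differed by 0.014 ± 0.21 in polysome libraries and by 0.00071 ± 0.17 in input libraries. Cpeb4 had positive differences of 0.066 ± 0.16 in polysome libraries and 0.078 ± 0.14 in input libraries. All of these were smaller than their SEs.

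The third comparison asked whether the genotype difference depended on the fraction (an interaction). It was called for none of 16962 genes (limma), and 94 (0.554%) had an unadjusted p under 0.05. This fit too counts deviations shared by same-numbered libraries as spread, and with a replicate block none was called either. For the interaction as well, the lack of calls does not show that nothing differed. For the members the interaction ran from -0.083 for Pum2 to 0.25 for Stau1, with SEs of 0.17 to 0.39, and the smallest unadjusted p was 0.535 (limma, no block). For Stau2 it was -0.014 ± 0.27.

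**Figure D4:**
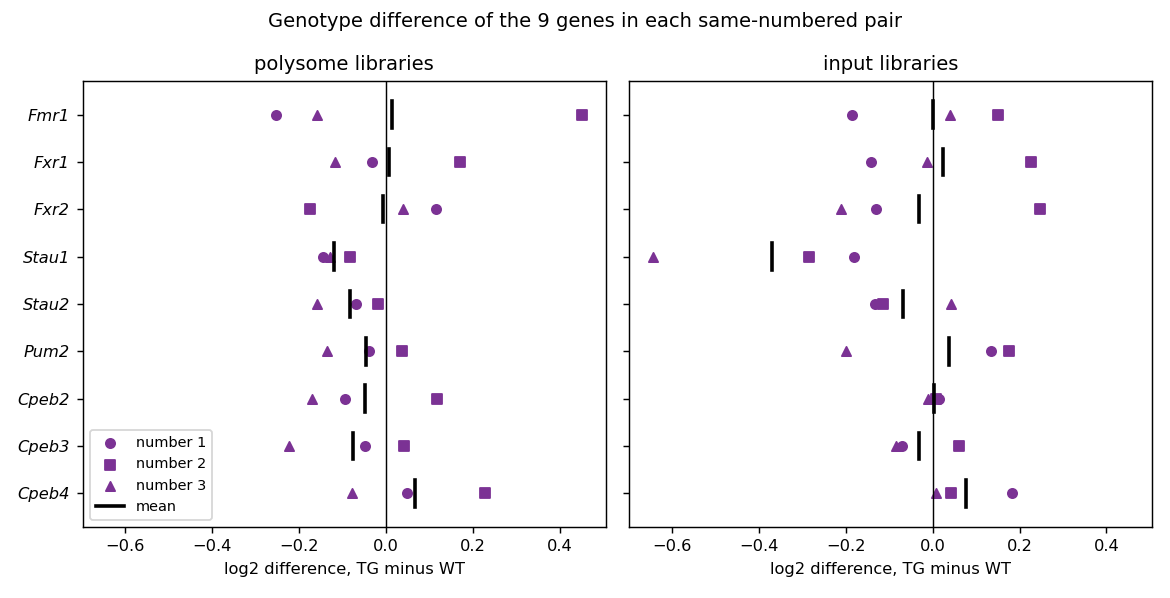
The log2 difference of TG minus WT (horizontal axis) of the 9 genes within each number, in polysome libraries (left panel) and input libraries (right panel), with a black bar at the mean of the 3 pairs. Stau1 in input lies below 0 in all 3 pairs, at -0.18, -0.29 and -0.64.

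To describe what else followed these mean profiles, the 3 genes nearest to the mean profile of each family were taken from 13167 candidates, by the root mean square difference of centred log2 values over the 12 libraries. Members of a family differed, so a gene near the mean need not follow any 1 member. Nearest to the fragile X genes were Trim23 (0.0473), Prkaa1 (0.0509) and Nrip1 (0.0520), where the median candidate was at 0.381. For the Staufen genes they were Plcl2 (0.121), Tgs1 (0.125) and Slco1c1 (0.127), with a median candidate of 0.562. In WT the log2 difference of polysome minus input was -0.31 for Trim23, against 0.00017 for Fmr1. It was -0.82 for Plcl2, against -1.17 for Stau2. For Pum2 they were Sdhaf2, Sh3bgrl2 and Lgalsl, at 0.0735 to 0.0772. For the CPEB genes they were Zfp109, Vezf1 and Usp25, at 0.0638 to 0.0692. Slco1c1 is a thyroid hormone and organic anion transporter of brain endothelium and is one of the endothelial markers above, where its level lay above those of the others. Which cells its RNA came from was not tested.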

How the data were processed

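Striatal synaptosomal polysome and input RNA of TG and WT mice was sequenced in 12 libraries, prepared with a stranded total RNA kit per the labels' protocols. The deposited signal is a table of the authors' normalized estimated counts per gene, not whole numbers. Per the submitters' processing notes, Salmon 1.1.0, R 3.6.2 and DESeq2 1.26.0 were used with GRCm38. Which annotation was used and how libraries were scaled is not given in the sources used here. Only 33.7% to 46.1% of values up to 20 reads lay within 0.1 of a whole read, so reads were not recovered and no count test was run.

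Identifiers were matched to GENCODE M21 (21465 of 21492), which gave symbols, coordinates, exons and 3′ UTRs on GRCm38. Fits were made in R 4.3.3 with limma 3.58.1, with a variance trend, on log2(value + 1), for genes reaching 10 in at least 3 fitted libraries, with Benjamini-Hochberg adjustment over all of them and a threshold of 0.05. Fold changes are on that scale, which understates the change of low genes. Polysome against input, in either genotype, and the interaction came from 1 fit of 12 libraries, which shares 1 estimate of spread, and genotype was fitted within 6 libraries. The fits were tested on simulated data. The 9 genes and all lists were chosen with earlier results of these data known. The genes named are the 9 members, Shank3, from each list the called genes with the largest rise and fall in WT, and the 3 nearest profiles of each family. Cpeb1 and other called genes of the lists were added after their values were seen, and a few results are not reported here.

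Groups share the numbers 1 to 3. Deviations from group means correlated at 0.24 to 0.55 in 18 same-numbered pairs of libraries and at -0.41 to -0.00088 in 36 others, and all 12 libraries matched their own number best, so the numbers were taken to pair the libraries. This pairing is read from the values, because no label explains the numbers. The alternatives were another scaling, filters and pseudocounts, no variance trend, a replicate block, other libraries in the fit, removal of a trend on exonic length, and each library left out. A block fit without all libraries of 1 number was added after the data were seen.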

Additional observations from a re-analysis of the deposited data

How the results depend on the processing

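Stau2 was called in both genotypes under every alternative tried. The only other scaling tried had factors of 0.99 to 1.01, and scaling to equal library sums was not tried. Sums were lower in polysome than in input libraries at like medians. The size of a polysome minus input difference, and the sign of a small one, therefore depends on the scaling. The fit with a replicate block called 5638 genes and 2 members in TG and 5052 genes and 4 members in WT for polysome against input, and it called 1 gene for genotype in polysome libraries. It changed no other call of a member. Without number 1 the block fit called 2 members in each genotype. Without number 2 it called 1321 genes in TG and 375 in WT, and without number 3 it called 3669 in WT. Only the 6 TG libraries gave 1700 genes. With the longest transcript, 1 rank of 9 was kept. Leaving out 1 library gave 1205 to 3263 genes in TG and 648 to 2566 in WT. The lowest TG counts were 1205, 1340, 1358 and 1552, without TG polysome 3, TG input 3, TG polysome 1 and TG input 2. The lowest WT counts were 648, 812, 1288 and 1375, without WT input 3, WT polysome 3, WT polysome 2 and WT input 2. Leaving out 1 library also gave 1 to 2 members in TG (Fxr1 passed without TG polysome 2), 0 to 1 genes for genotype in polysome and in input libraries, and 0 to 2 for the interaction.

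No sign change touched a called difference, but the largest interaction, that of Stau1 (0.25), and the largest genotype difference in polysome libraries, also that of Stau1 (-0.12), changed sign. With TMM-type scaling Fmr1 was at -0.00023 in TG and -0.0027 in WT, and in the block fit at -0.11 in TG without number 2 and -0.018 in WT without number 3. Once the trend on exonic length was removed, Cpeb2 was at 0.16 in TG and 0.20 in WT, Cpeb3 at -0.058 in TG and -0.015 in WT, Cpeb4 at -0.036 in TG and -0.021 in WT, Fmr1 at 0.29 in TG and 0.27 in WT, and Pum2 at 0.40 in TG and 0.48 in WT. Cpeb2 was at 0.029 in WT in the block fit without number 2. Leaving out 1 library, polysome against input ran from -0.16 to 0.18 for Fmr1 in TG, from -0.13 to 0.13 for Fmr1 in WT and from -0.034 to 0.024 for Cpeb2 in WT. TG against WT in polysome libraries ran from -0.19 to 0.058 for Cpeb3, -0.16 to 0.19 for Fmr1, -0.17 to 0.20 for Fxr1, -0.13 to 0.15 for Fxr2, -0.40 to 0.17 for Stau1 and -0.18 to 0.049 for Stau2. In input libraries it ran from -0.018 to 0.032 for Cpeb2, -0.10 to 0.13 for Fmr1, -0.12 to 0.16 for Fxr1, -0.15 to 0.047 for Fxr2, -0.083 to 0.19 for Pum2 and -0.21 to 0.080 for Stau2. The interaction ran from -0.16 to 0.090 for Cpeb3, -0.074 to 0.091 for Cpeb4, -0.16 to 0.18 for Fmr1, -0.20 to 0.18 for Fxr1, -0.093 to 0.19 for Fxr2, -0.23 to 0.037 for Pum2, -0.030 to 0.54 for Stau1 and -0.16 to 0.13 for Stau2. The causes were not tested. With 3 libraries a group and an unknown read depth, the SEs of the genotype differences limit what could be seen. For the members they were 0.13 to 0.31 without a replicate block, where deviations shared by same-numbered libraries count as spread. With the block they ran from 0.094 for Cpeb4 in input libraries to 0.14 for Fmr1 in polysome libraries. No member was called for genotype in either fit.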
